A study of Homo sapiens with 28 samples.

Results

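PABPC1 knockdown was compared with a lacZ control in HEK293 cells, a human line derived from embryonic kidney, on 5 of the 28 arrays of the series. These were the 3 arrays whose labels name a PABPC1 hairpin and 2 lacZ arrays, whose titles carry the additions bis and rep. The titles name no series, and these arrays were taken here as part of a second series. A further 9 arrays taken as that series, 3 each for PARP1, PRKDC and SUPT16H hairpins, served as a comparison. They were used to separate what PABPC1 knockdown did from what any of these knockdowns did. All cells, controls included, were infected with lentiviruses carrying a short hairpin RNA in the pLKO vector under the U6 promoter, held in 2 µg/ml puromycin and harvested after 6 days. Each array of a knocked-down gene carried a different hairpin, and hairpins had been kept for how well they lowered their target. The lacZ hairpin is aimed at a bacterial gene that human cells lack. What was measured is the RNA of a puromycin-selected population of this line, so that fewer cells with a transcript and less transcript per cell cannot be told apart.

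PABPC1 is the main cytoplasmic poly(A)-binding protein. It coats the poly(A) tail of mRNAs, binds the cap-bound initiation factor eIF4G and so favours translation, recruits the deadenylases that shorten tails as well as factors that hold them back, and its own mRNA is controlled through its 5′ end like those of ribosomal proteins. Most mRNAs end in such a tail, whereas replication-dependent histone mRNAs end in a stem-loop and small nuclear and nucleolar RNAs have no tail. PARP1 and PRKDC act in DNA repair, and SUPT16H is a subunit of the histone chaperone FACT. None of the 3 is a tail-binding protein.

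Levels are log2 RMA intensities of Human Gene ST1.0 arrays, taken from 1 probeset for each of 18417 genes, and each difference is on the log2 scale and followed by its limma standard error. A gene is called where its Benjamini-Hochberg (BH) adjusted p over all genes was under 0.05. Array medians of the second series were 54.5 to 58.3 on the linear scale, and precision is limited by how few arrays there were. The 3 PABPC1 hairpins differed from each other with SDs over probesets of 0.25 to 0.30, with 18 to 43 genes over 1 log2 unit apart, and the lacZ arrays (replicates 2 and 3) with an SD of 0.28 and 41 such genes. LacZ replicate 2, however, was almost the lacZ array of the first series (replicate 1) over again. After a mean offset of 0.32 between them, their SD was 0.07 with 0 genes over 1 unit apart, smaller than in any other pair compared. Whether both measure 1 RNA was not tested, and lacZ replicate 2 may not be a control made with the second series, so that calls of the genes described that were lost without it are named. PRKDC hairpin 3 stood apart, at SDs of 0.53 from the other PRKDC hairpins with 446 and 490 genes over 1 unit apart, so that results set against the other knockdowns are also given without it. Arrays of a knocked-down gene carried different hairpins and so came from separately infected cells, with 1 array for each hairpin. The labels leave unsaid whether the lacZ arrays go back to separate cultures. If they do not, the spread between the lacZ arrays may be technical, and the p-values against lacZ cover only these samples. As for the line itself, KRT8, VIM and NEFL, all known from HEK293 cells, lay at the 98.5th, 98.5th and 98.9th percentile of all genes. They were the highest of the HEK293 markers listed, which reached down to percentiles of 56.3 (GATA2), 53.3 (PAX2) and 41.0 (NEFM). The blood cell gene PTPRC and the fibroblast genes DCN and LUM lay at the 1.58th, 2.14th and 1.47th percentile. They were the lowest of the listed markers of other cell types, which reached up to 48.9 (SPI1), 54.6 (RBFOX3) and 67.1 (COL1A1). The ranges of HEK293 markers and of markers of other cell types thus overlapped.

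The hairpins lowered their own target in every array. PABPC1 read 8.59, 8.88 and 9.19 with hairpins 1, 2 and 3, against 11.06 and 10.93 in the lacZ arrays, which is 18.8%, 23.1% and 28.6% of the lacZ level. The difference was -2.11 ± 0.20 from lacZ (adjusted p = 2.9e-07) and -1.97 ± 0.14 from the other knockdowns (7.3e-09), whose lowest array read 10.35 (PRKDC hairpin 3). Of the 9 poly(A)-binding protein genes looked for, 5 were measured, and PABPC3, an intronless copy of PABPC1 known for expression in testis, also fell. It read 5.18, 5.60 and 5.83 with the PABPC1 hairpins, against 6.95 and 6.66 with lacZ, and differed by -1.26 ± 0.19 from lacZ (adjusted p = 0.00023) and by -0.93 ± 0.14 from the other knockdowns (0.0021). Its order over the hairpins was that of PABPC1, and since the copies are nearly identical in sequence, whether its probes also read PABPC1 RNA was not tested.

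No other family member was called higher. PABPC4, the other broadly expressed cytoplasmic member, read 9.13, 9.33 and 9.41 with the PABPC1 hairpins, against 9.27 and 9.23 with lacZ, a difference of 0.04 ± 0.23. With hairpins 2 and 3 it lay above all 9 other knockdown arrays and with hairpin 1 above 8 of them, and the difference from their mean, 0.43 ± 0.17, was not called (adjusted p = 0.33). PABPC1L, which is known from oocytes, read 6.72, 6.58 and 6.70, against 6.14 and 6.12 with lacZ, a difference of 0.54 ± 0.17 that just missed the threshold (0.055) and lay within the range of the other knockdowns. PABPC5 was at the bottom of the scale in every array, at most 4.36.

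**Figure D1:**
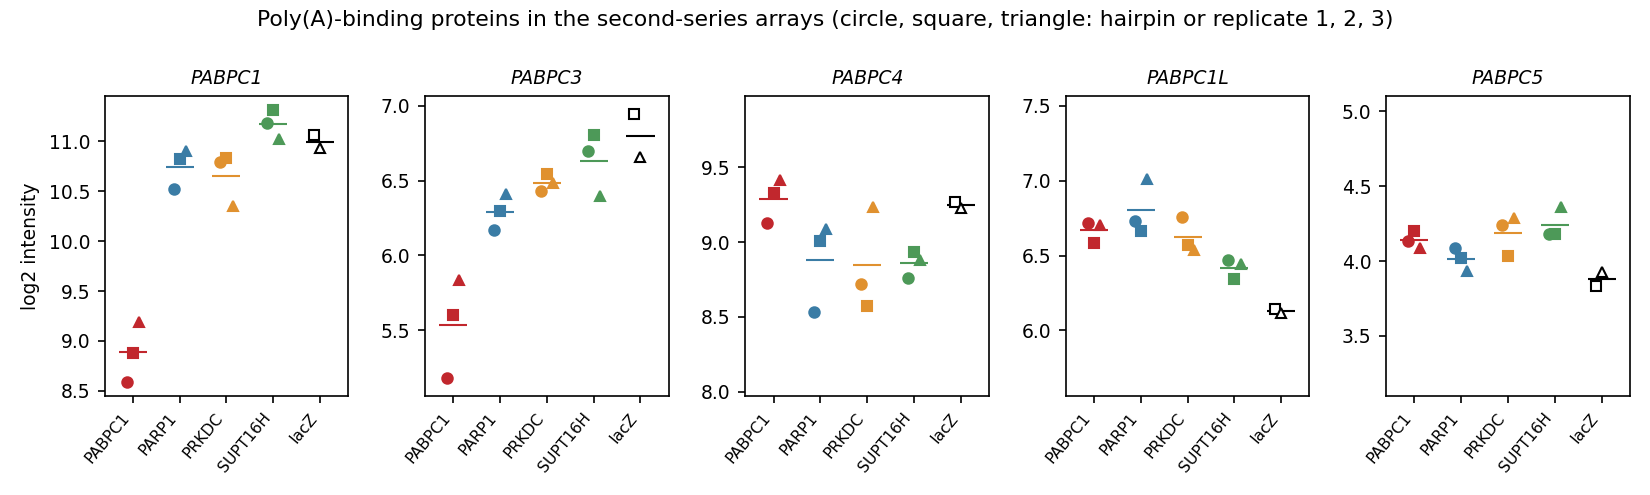
Level (log2 intensity) of the 5 measured poly(A)-binding protein genes in the 14 arrays of the second series, by knocked-down gene, with bars at the group means. PABPC1 (8.59 to 9.19) and its near-copy PABPC3 (5.18 to 5.83) lie below every other array with the PABPC1 hairpins, while PABPC4 stays at the lacZ level.

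Against lacZ, 1060 of 18417 genes were called in limma (5.76%), 319 higher (1.73%) and 741 lower (4.02%) in PABPC1 knockdown. This count leans on the controls and on single hairpins, since leaving out lacZ replicate 2 gave 111 calls, leaving out replicate 3 gave 391, and leaving out PABPC1 hairpin 1, 2 or 3 gave 564, 595 or 441. The share of higher calls, 30.1%, was 44.1% after quantile normalization and 38.9% after median centring. Against the mean of the other knockdowns 16 genes were called (0.0869%), 4 higher (0.0217%) and 12 lower (0.0652%), and 10 of these 16 were also among the 1060. Without PRKDC hairpin 3, a setting chosen after the data were seen, 309 genes were called (1.68%), 147 higher (0.798%) and 162 lower (0.88%), and all 16 were among them. The other knockdowns set against the same lacZ arrays gave 3541 calls (19.2%), 1639 higher (8.9%) and 1902 lower (10.3%). Over all genes the SD of the difference was 0.38 from lacZ and 0.19 from the other knockdowns, and genes more than 1 log2 unit away numbered 327 and 13.

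**Figure D2:**
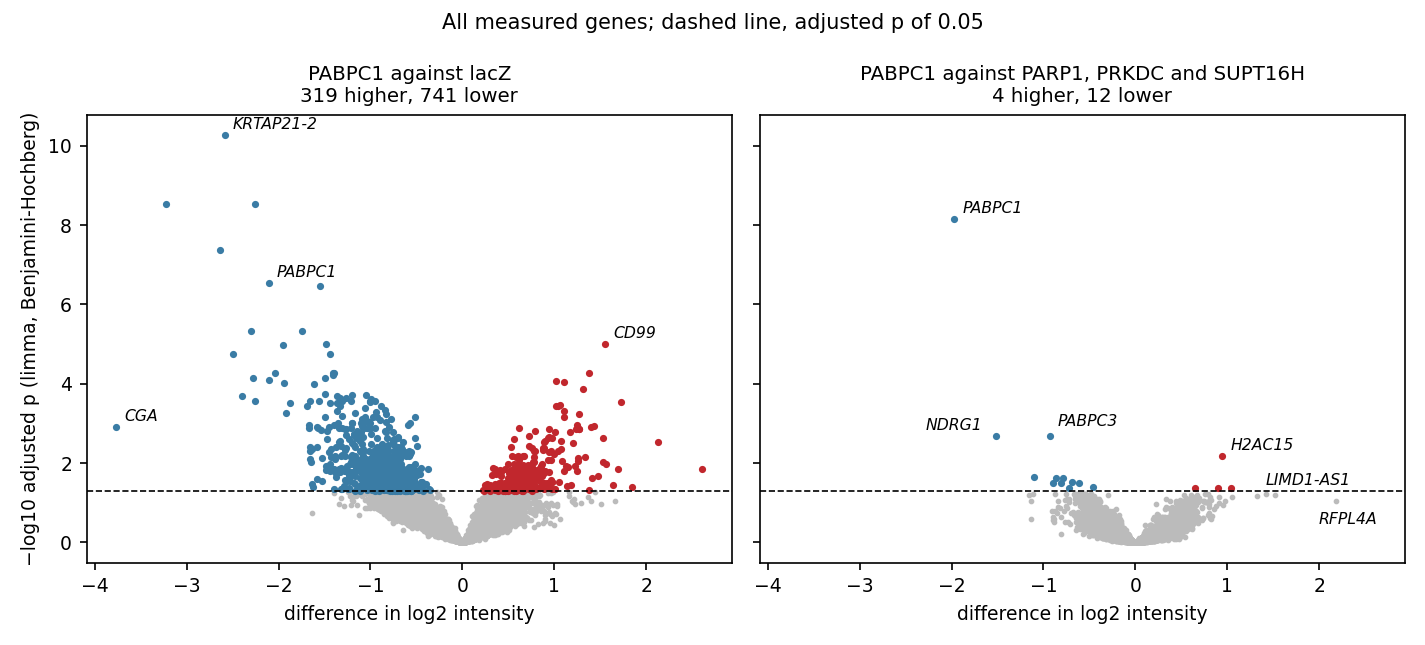
Difference in log2 intensity (x) and −log10 of the adjusted p (y) for 18417 genes in PABPC1 knockdown against lacZ (left) and against the PARP1, PRKDC and SUPT16H knockdowns (right), called genes in red (higher) and blue (lower). Against lacZ 1060 genes pass the dashed line and against the other knockdowns 16, with PABPC1 itself far above the rest.

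The largest falls against lacZ were of genes that were as low in the other knockdowns. KRTAP21-2, a hair keratin-associated protein, read 4.32, 4.19 and 4.25 with the PABPC1 hairpins, against 7.09 and 6.59 with lacZ, and 4.10 to 4.50 in the 9 other knockdown arrays. ERRFI1, which restrains signalling by the EGF receptor, read 7.29, 7.55 and 7.44, against 10.03 and 9.81 with lacZ, and 6.59 to 7.37 in the others. CGA, the common subunit of the glycoprotein hormones, was more scattered, at 6.95, 5.27 and 5.17, against 9.47 and 9.66 with lacZ, and 5.47 to 8.73 in the others. The lacZ arrays were thus apart from all 12 knockdown arrays for these 3 genes. PABPC1 knockdown differed from the other knockdowns by 0.00 ± 0.11 for KRTAP21-2, 0.41 ± 0.22 for ERRFI1 and -0.81 ± 0.48 for CGA, none of them called (adjusted p = 0.997, 0.542 and 0.607).

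The same held for the rest of the 10 largest falls. The differences from the other knockdowns were -0.35 for KRTAP19-1, 0.25 for the olfactory receptor OR2B6, -0.37 for the germ-cell cyclin CCNA1, 0.09 for the melatonin receptor relative GPR50, 0.01 for the histone pseudogene H2BC19P and 0.13 for the zinc finger gene ZSCAN5B, again with no call (adjusted p of 0.483 to 0.996). The pseudogene REXO1L1P fell less than elsewhere, reading 7.41, 7.65 and 8.01 with the PABPC1 hairpins, against 10.32 and 9.59 with lacZ, and 6.30 to 7.48 in the others. That difference, 0.97 ± 0.25, was not called (0.092) until PRKDC hairpin 3 was left out (1.10, adjusted p = 0.014). All 10 falls against lacZ kept their calls under every alternative in which they were tested. The alternative with a minimum mean intensity leaves out genes of low level, such as KRTAP21-2, and so did not test them.

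RFPL4A, a ret finger protein-like gene of the early embryo named here after its values were seen, had the largest positive difference from the other knockdowns. It read 7.56, 8.48 and 8.70 with the PABPC1 hairpins, against 9.86 and 9.92 with lacZ. In the others it read 4.94 to 6.41, apart from 9.36 with PRKDC hairpin 3. PABPC1 knockdown thus stood between lacZ and 8 of the 9 other arrays, at 2.18 ± 0.55 above the other knockdowns (adjusted p = 0.092) and 2.63 above them without that array (0.00024).

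Among the 10 largest rises against lacZ 6 were small untranslated RNAs, which carry no poly(A) tail. The vault RNA VTRNA1-1 read 8.55, 8.36 and 7.92 with the PABPC1 hairpins, against 5.12 and 6.21 with lacZ, a difference of 2.61 ± 0.62 (adjusted p = 0.014). SNORA38, SNORD37, SNORA62 and SNORA10, which guide RNA modification, were 1.56 to 1.84 higher than lacZ, and the U1 variant RNVU1-15 was 1.53 higher. All 6 lay within the range of the other knockdowns with every PABPC1 hairpin. By class, 7 of 23 spliceosomal RNAs, 5 of 61 H/ACA and 3 of 115 C/D box RNAs and 2 of 4 vault and Y RNAs were called higher against lacZ. None was called lower, and of all genes 1.73% were called higher and 4.02% lower. The class medians were 0.77, 0.45, 0.19 and 1.52, beside 0.04 for all genes. Against the other knockdowns limma called 0 in each class. At an unadjusted p under 0.05, 3 spliceosomal and 4 C/D box RNAs were higher and 2 H/ACA box RNAs lower.

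The small RNA calls rested on lacZ replicate 2, in which SNORD37 read 5.64 and SNORA10 read 8.90, against 6.90 and 10.13 in replicate 3. Without replicate 2 all 6 lost their calls (adjusted p = 0.31 for VTRNA1-1, 0.43 for SNORA38, 0.405 for SNORD37, 0.291 for SNORA62, 0.396 for SNORA10 and 0.22 for RNVU1-15). SNORA38 and SNORA62 also lost theirs without replicate 3 (0.078 and 0.14) and without any 1 of the PABPC1 hairpins (0.0568 to 0.125).

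The other rises were of BEX1, CD99, LIMD1-AS1 and the linker histone H1-3. BEX1, a small protein of neural cells, read 9.16, 9.07 and 8.80 with the PABPC1 hairpins, against 6.98 and 7.59 with lacZ, and was as high in the other knockdowns (difference 0.03 ± 0.19). CD99, a cell surface glycoprotein, read 7.86, 7.80 and 7.45, against 6.04 and 6.26 with lacZ, a rise of 1.55 ± 0.18 (adjusted p = 1e-05). It was higher still in each of the 9 other knockdown arrays (7.97 to 8.68), from which PABPC1 knockdown differed by -0.55 ± 0.13 (0.08, and 0.035 without PRKDC hairpin 3).

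LIMD1-AS1, an antisense long noncoding RNA at the LIMD1 locus, went the other way. It read 9.94, 9.73 and 9.86 with the PABPC1 hairpins, against 7.14 and 8.29 with lacZ, and no other knockdown array passed 8.83. The rise was 2.13 ± 0.41 against lacZ (adjusted p = 0.003, lost without lacZ replicate 2 at 0.206), and the difference from the other knockdowns was 1.42 ± 0.30 (0.059, and 0.018 without PRKDC hairpin 3). LIMD1 itself, a LIM domain protein, differed by 0.11 ± 0.15 from the other knockdowns, and whether the probes of this pair keep the strands apart was not tested.

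**Figure D3:**
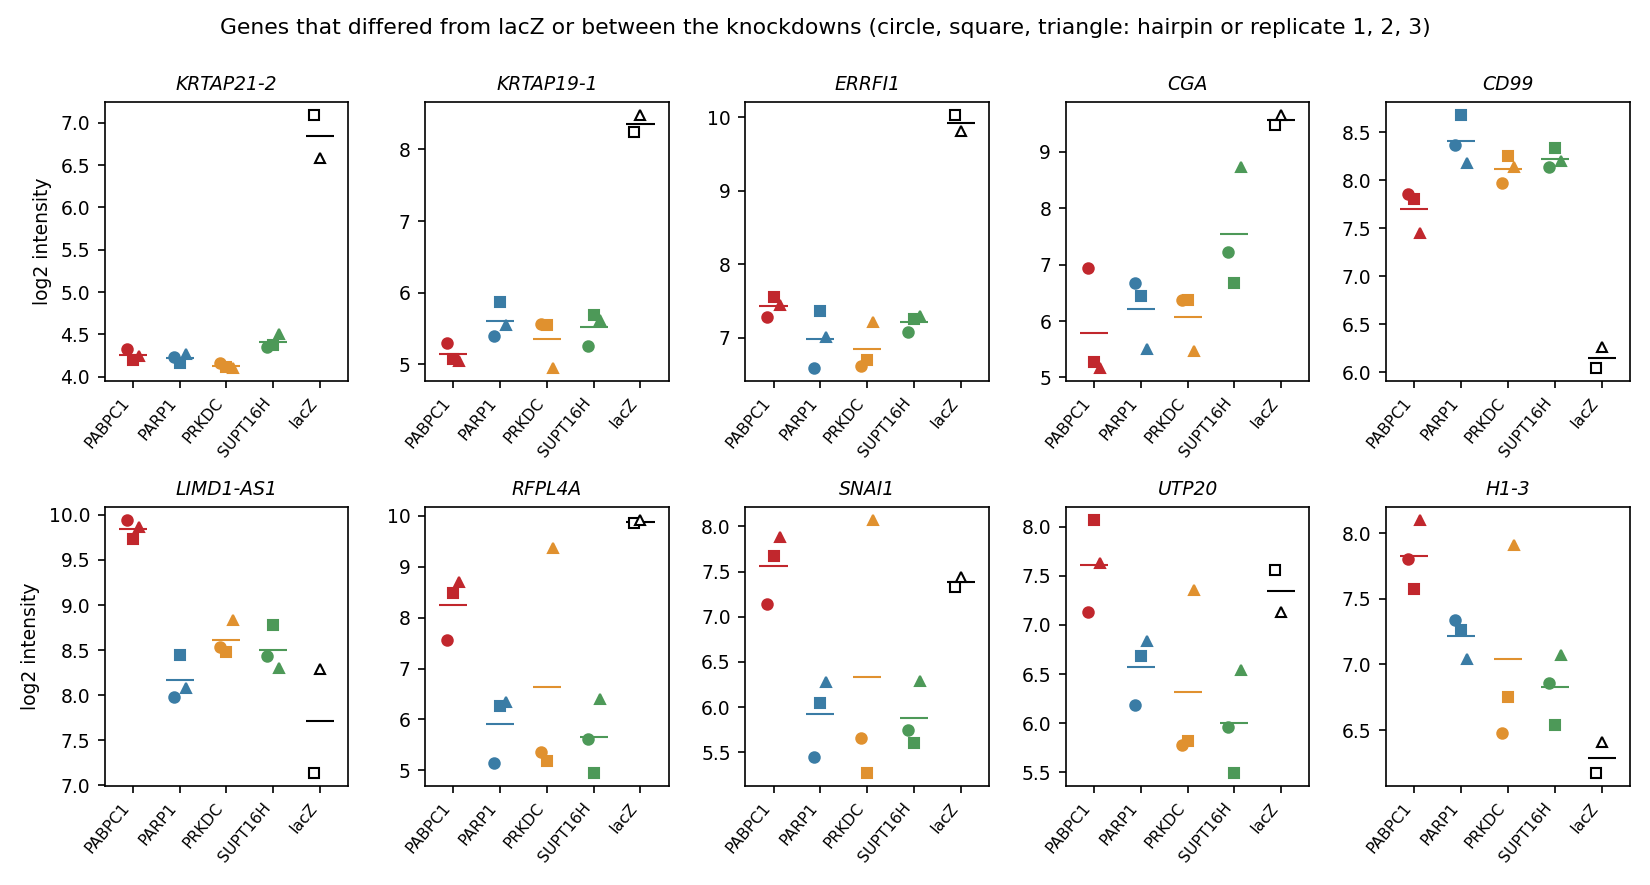
Level (log2 intensity) of 10 genes in the 14 arrays of the second series, with bars at the group means. KRTAP21-2, KRTAP19-1, ERRFI1 and CGA are low and CD99 is high in all knockdowns, whereas SNAI1 and UTP20 are near the lacZ level in PABPC1 knockdown and PRKDC hairpin 3, RFPL4A lies between lacZ and most other knockdowns, and LIMD1-AS1 (9.73 to 9.94) and H1-3 (7.57 to 8.10) are high with the PABPC1 hairpins.

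Of the genes that set PABPC1 knockdown apart from the other knockdowns, 3 besides PABPC1 and PABPC3 with the most negative differences belong to glycolysis or the response to low oxygen. NDRG1, a stress and hypoxia-induced protein, read 8.27, 6.93 and 7.66 with the PABPC1 hairpins, against 8.06 to 9.89 in the 9 other arrays, a difference of -1.52 ± 0.22 (adjusted p = 0.0021). ENO2, an enolase, read 7.53, 6.54 and 7.00, against 7.19 to 8.59 in the others, a difference of -1.10 ± 0.19 (0.023). PGK1, the phosphoglycerate kinase of glycolysis, read 9.73, 9.24 and 9.20, against 9.69 to 10.80 in the others, a difference of -0.89 ± 0.17 (0.032). In each gene the ranges met only where PABPC1 hairpin 1, the highest of its group, reached the lowest other array, PRKDC hairpin 3.

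The lacZ arrays placed these 3 genes differently. PGK1 read 9.34 and 9.24 with lacZ, so that PABPC1 knockdown was at the lacZ level (0.10 ± 0.23) and the other knockdowns were 0.99 above it. NDRG1 read 8.28 and 8.38 with lacZ, above all PABPC1 hairpins (-0.71 ± 0.30, adjusted p = 0.15) and below 8 of the 9 others. ENO2 read 7.96 and 8.07 with lacZ, near the others, and fell against lacZ too (-0.99 ± 0.27, 0.027), a call lost without lacZ replicate 2 (0.219) or 3 (0.145) and without PABPC1 hairpin 2 (0.115) or 3 (0.0782). Of 38 genes of a glycolysis and hypoxia list drawn up after these values were seen, 35 were lower than in the other knockdowns, with a median of -0.22, beside 56.1% and -0.02 for all genes. Its counts are therefore no independent support. The median member lay -0.01, -0.18 and -0.14 from the mean lacZ level with PABPC1 hairpins 1, 2 and 3. It lay at -0.12 with PRKDC hairpin 3, within that range, and between 0.01 and 0.30 in the 8 other arrays. Against lacZ 25 of these 38 genes were lower and 13 higher. SLC2A1, the glucose transporter GLUT1, read 8.25, 7.88 and 8.02 with the PABPC1 hairpins, against 7.29 and 7.31 with lacZ (0.75 ± 0.20, adjusted p = 0.026, lost without lacZ replicate 2 at 0.256 or 3 at 0.116 and without PABPC1 hairpin 1 at 0.102 or 3 at 0.0662).

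In 10 of the 16 genes the 3 PABPC1 hairpins lay beyond all 9 other knockdown arrays, as 149 genes did on the high side (0.809%) and 246 on the low side (1.34%). EEF1A2, a tissue-restricted elongation factor, read 8.05, 7.77 and 7.93, against 8.36 to 8.99 in the others, a difference of -0.79 ± 0.14 (adjusted p = 0.023). CKS1B, a subunit of cyclin-dependent kinases, read 9.47, 9.57 and 9.48, against 9.86 to 10.99 in the others and 10.34 and 10.45 with lacZ (-0.81 ± 0.15, 0.032). HSPB1, a small heat shock protein, read 7.55, 6.95 and 7.48, against 7.58 to 8.34 in the others and 8.46 and 8.60 with lacZ (-0.69 ± 0.13, 0.029). EEF1A2 was at the lacZ level, which was 7.70 and 8.15, while CKS1B and HSPB1 were below the level of every other array, lacZ included.

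MAD2L2, a subunit of the translesion polymerase ζ and of shieldin, was 0.61 ± 0.12 lower than in the others (adjusted p = 0.032) and at the lacZ level (-0.01 ± 0.16). NGEF, a guanine nucleotide exchange factor known from neurons, was 0.46 ± 0.09 lower (0.041) at a low level of 5.27 to 5.42, and RASSF2, a RAS-association domain protein, was 0.86 ± 0.15 lower (0.023) at 4.97 to 5.38. STEAP1, a metalloreductase of the plasma membrane, was 0.65 ± 0.13 higher (0.043), at 5.67 to 5.86, against 4.68 to 5.72 in the others and 4.95 and 5.07 with lacZ. RASSF2 met the range of the others at PRKDC hairpin 3 and STEAP1 at PARP1 hairpin 2, while MAD2L2 and NGEF lay below all 9.

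Outside PABPC1 and PABPC3, which kept their calls under each alternative (adjusted p up to 2.32e-05 and 0.039), the calls against the other knockdowns were easily lost. Of the 14 others, 6 were lost without PABPC1 hairpin 1 (adjusted p = 0.069 to 0.0935), 13 without hairpin 2 (0.135 to 0.39) and 13 without hairpin 3 (0.109 to 0.354). All 14 missed the threshold without the SUPT16H arrays (0.0677 to 0.256). H2AC15 kept its call without hairpin 2 and NDRG1 without hairpin 3.

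**Figure D4:**
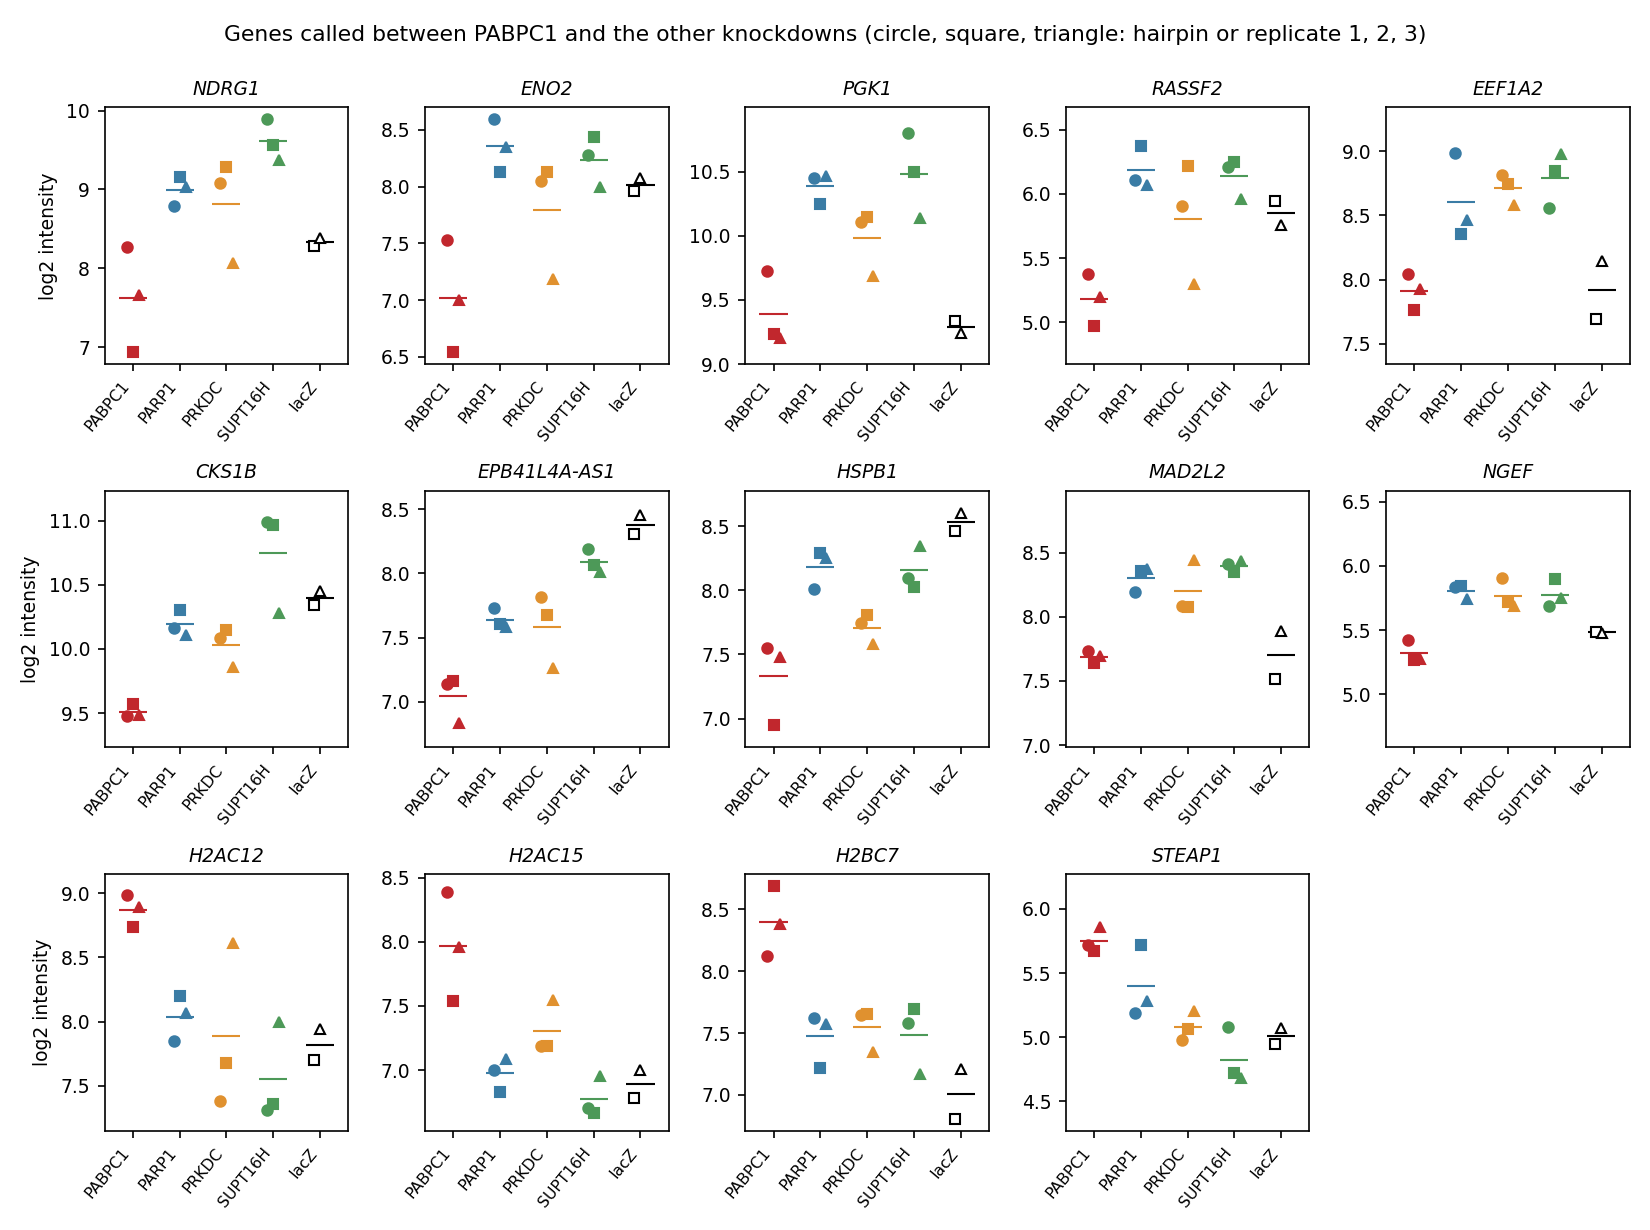
Level (log2 intensity) of the 14 genes other than PABPC1 and PABPC3 that were called between PABPC1 and the other knockdowns, in the 14 arrays of the second series, with bars at the group means. The mean of PABPC1 knockdown is below those of the other knockdowns in the first 10 panels and above them in the last 4, and lacZ lies at its level for PGK1, EEF1A2 and MAD2L2.

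The replication-dependent histone genes lay widely above the other knockdowns. Their mRNAs are made in S phase and end in a stem-loop bound by SLBP in place of a poly(A) tail. H2AC12 read 8.99, 8.74 and 8.89 with the PABPC1 hairpins, against 7.31 to 8.61 in the others and 7.70 and 7.94 with lacZ, a rise of 1.04 ± 0.21 over the other knockdowns (adjusted p = 0.043) and of 1.05 ± 0.29 over lacZ (0.03). H2BC7 read 8.12, 8.69 and 8.38, against 7.17 to 7.69 in the others and 6.80 and 7.21 with lacZ (0.90 ± 0.18 over the others, 0.043). H2AC15 read 8.39, 7.54 and 7.96, against 6.66 to 7.54 in the others and 6.78 and 7.00 with lacZ (0.95 ± 0.15 over the others, 0.0066). These 3 genes, of which H2AC15 touches the range of the others and the remaining pair clears it, are the 3 histones of the 16 called genes.

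Of 57 such histone genes measured, 52 were above the other knockdowns, with a median of 0.31, beside 43.9% of all genes above and a median of -0.02. At an unadjusted p under 0.05, 31 were higher and 0 lower, against 798 and 1098 of 18417 genes. With PRKDC hairpin 3 left out 13 were called higher and 0 lower in limma (0 lower also at an unadjusted p under 0.05), among them H3C1 (0.90, adjusted p = 0.0084), H4C2 (0.85, 0.012), H1-3 (0.94, 0.005) and H2AC4 (1.14, 0.0047). The list median was positive with quantile normalization (0.34) and median centring (0.34) as well. The median member lay 0.13, 0.15 and 0.20 above the mean lacZ level with the PABPC1 hairpins and 0.20 above it with PRKDC hairpin 3. In the 8 other arrays it lay between -0.21 and -0.04, so that the PABPC1 hairpins shared their place with that 1 PRKDC array.

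Against lacZ the histones moved both ways, 14 higher and 6 lower, beside 1.73% and 4.02% of all genes. H4C14 read 11.21, 10.99 and 11.34, against 9.81 and 10.01 with lacZ (1.27 ± 0.23, adjusted p = 0.0014), and H4C9 read 5.78, 5.91 and 5.64, against 7.17 and 7.21 with lacZ (-1.41 ± 0.18, 5.4e-05). H4C9 was also lower than lacZ in the other knockdowns (-1.24), from which PABPC1 knockdown differed by -0.17 ± 0.13, whereas H4C14 was 0.49 ± 0.17 above them (0.24). Without lacZ replicate 2 only 1 histone was higher and 2 lower, and H4C14 (0.067), H2BC7 (0.0836), H1-3 (0.0864), H2AC15 (0.113), H4C2 (0.264) and H2AC12 (0.342) lost their calls against lacZ. H2AC12 also lost its call against lacZ without lacZ replicate 3 (0.0914) and without PABPC1 hairpin 1, 2 or 3 (0.0892, 0.0525 and 0.0815). The comparison with the other knockdowns does not use those arrays.

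Histone genes of a class share much of their coding sequence, so that probesets of neighbouring copies may read in part the same RNA. SLBP, the stem-loop binding protein, read 8.30, 8.67 and 8.38, against 8.43 and 8.53 with lacZ and 8.02 to 8.94 in the others. MCM2, a replicative helicase subunit, rose against lacZ by 0.76 ± 0.15 (adjusted p = 0.0042, 0.198 without lacZ replicate 2) and lay at the level of the other knockdowns (0.03 ± 0.11). It was the 1 gene of the DNA replication list called against lacZ, and most of that list went the other way. Against lacZ 24 of 35 were below, with a median of -0.14, and 2 were higher and 5 lower at an unadjusted p under 0.05. Of 35 DNA replication genes 28 were above the other knockdowns, beside 43.9% of all genes, with a median of 0.08, and 0 were called against the other knockdowns in limma, with 4 higher and 0 lower at an unadjusted p under 0.05. Histone variants with polyadenylated mRNAs had a median of -0.09 over 9 genes.

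**Figure D5:**
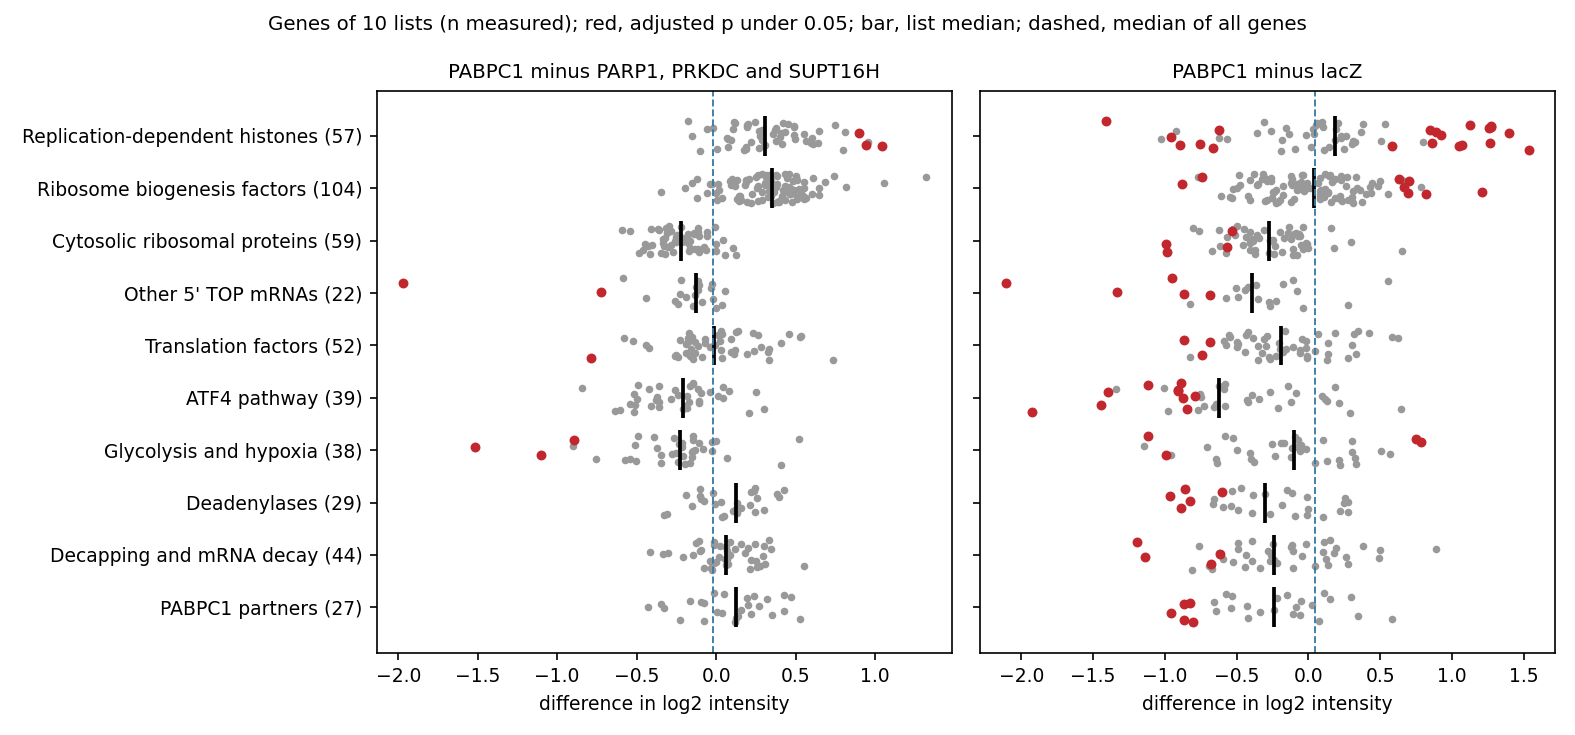
Difference in log2 intensity of each measured gene of 10 lists in PABPC1 knockdown against the other knockdowns (left) and against lacZ (right), called genes in red, list medians as bars, and the median of all genes dashed. Histones (median 0.31) and ribosome biogenesis factors (0.35) lie to the right and ribosomal proteins (-0.22) to the left of all genes in the left panel, while partners, deadenylases and decay genes lie to the left in the right panel only.

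Ribosomal protein mRNAs begin with a C followed by a run of pyrimidines, the 5′ terminal oligopyrimidine or TOP motif, through which their translation and stability are controlled, and PABPC1 and several translation factors share it. The starts of some are shown to set such a motif beside its absence. Each line gives the 5 bases before the transcript start and its first 20 bases from RefSeq (GRCh38.p14), with the motif in capitals.
EIF4B: cgggtCTTTTgcgttctctttccct
ZFAS1: tcgttCTTTCgcgtctgcggtgccc
RPL34: ttcttCCTCTTCCggggacgttgtc
RPS27: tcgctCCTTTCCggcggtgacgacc
EEF2: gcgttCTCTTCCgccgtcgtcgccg
EPB41L4A-AS1: aattctgtcgggtcccaaaatacgt
They lie at chr12:53006451-53006475, chr20:49278637-49278661, chr4:108620571-108620595, chr1:153990757-153990781, chr19:3985444-3985468 (minus strand) and chr5:112160521-112160545, the others on the plus strand. The RefSeq start of EPB41L4A-AS1, a noncoding host of small RNAs counted among TOP genes in the list used, does not begin with this pattern. Searched as a C at the first base followed by at least 4 bases that are C or T, on the transcript strand only, the motif was at the start of 35 of 50 ribosomal protein genes and 12 of 16 other TOP genes with a start in the table, beside 4.59% of 14237 genes.

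Ribosomal protein genes were slightly but widely lower. Of 59 measured, 55 were below lacZ with a median of -0.27, beside 44.7% and 0.04 for all genes. RPL34, RPL17, RPL27A and RPS27 were called lower, 4 of 59 beside 4.02% of all genes. RPL34 read 10.71, 10.70 and 10.37 with the PABPC1 hairpins, against 11.59 and 11.58 with lacZ (-0.99 ± 0.24, adjusted p = 0.017), and RPS27 read 11.92, 11.83 and 11.66, against 12.27 and 12.41 with lacZ (-0.53 ± 0.15, 0.037). Against the other knockdowns 55 were again below, with a median of -0.22, and limma called 0, though 22 were lower and 0 higher at an unadjusted p under 0.05. The median member lay -0.20, -0.28 and -0.35 from the mean lacZ level with the PABPC1 hairpins, and -0.45 and -0.34 from it with PRKDC hairpins 1 and 2. With PRKDC hairpin 3 it lay at -0.11, with the PARP1 hairpins between -0.05 and 0.02, and with the SUPT16H hairpins between 0.05 and 0.15. PABPC1 knockdown was thus set apart from PARP1 and SUPT16H knockdown and not from PRKDC hairpins 1 and 2, and leaving out the SUPT16H arrays moved the median to -0.12.

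Without lacZ replicate 2 none of the 4 ribosomal proteins was called (adjusted p = 0.205 for RPL34, 0.167 for RPL17, 0.232 for RPL27A and 0.206 for RPS27). Without replicate 3 RPL17 kept its call and RPL34 (0.0938), RPL27A (0.247) and RPS27 (0.201) lost theirs. RPS27 and RPL27A were lost without any 1 hairpin (0.0529 to 0.145) and RPL34 without hairpin 3 (0.0805). After quantile normalization 42 of 59 were below lacZ and 2 were called, and without lacZ replicate 3 43 were below. RPL27A was lost after quantile normalization (0.0663), median centring (0.0577), with the pseudocount (0.0564) and with the mean of probesets (0.387), RPS27 after quantile normalization (0.101) and RPL34 with the mean of probesets (0.0847). Members with the motif had a median of -0.22 against the other knockdowns and members without it -0.27. Over all genes the medians were -0.06 for starts with the motif and -0.02 for others, and 63.1% and 54.4% were lower.

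Of 22 other TOP genes 20 were below lacZ and 20 below the other knockdowns, with medians of -0.40 and -0.13, beside 44.7% and 56.1% of all genes. PABPC1, the hairpins' target, is among them. The median member lay -0.46, -0.31 and -0.43 from the mean lacZ level with PABPC1 hairpins 1, 2 and 3. With PRKDC hairpins 1, 2 and 3 it lay at -0.44, -0.37 and -0.61, so that PABPC1 was not set apart from PRKDC knockdown. It lay between -0.26 and -0.14 with the PARP1 hairpins and between -0.15 and 0.02 with the SUPT16H hairpins. EPB41L4A-AS1 read 7.14, 7.16 and 6.83 with the PABPC1 hairpins, against 8.30 and 8.45 with lacZ and 7.27 to 8.19 in the others, and fell by 1.33 ± 0.20 against lacZ (adjusted p = 0.00023) and by 0.73 ± 0.14 against the others (0.043). ZFAS1, another noncoding host of small nucleolar RNAs, read 7.83, 7.90 and 7.72, against 8.67 and 8.87 with lacZ and 7.96 to 8.79 in the others (-0.95 ± 0.17, 0.0013, and -0.58 ± 0.12, 0.059). Both lay below all 11 other arrays. EIF4B, which helps unwind 5′ leaders, read 10.05, 9.91 and 10.05, against 10.96 and 10.77 with lacZ (-0.86 ± 0.23, 0.027), within the range of the others. The elongation factor EEF2, with a motif as long as that of RPS27, differed by -0.23 ± 0.19 from lacZ and by -0.26 ± 0.14 from the others, neither called. EIF4B lost its call without either lacZ array (0.325 without replicate 2 and 0.0885 without 3) or any hairpin (0.0605 to 0.0765), and the mean of its probesets had the other sign (0.12, adjusted p = 0.85).

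Proteins that work with PABPC1 lay mostly below lacZ and mostly above the other knockdowns. Of 27 partners measured 5 fell against lacZ and 0 rose, beside 4.02% lower and 1.73% higher of all genes, with a median of -0.24. After quantile normalization 1 was called higher and 1 lower, with a median of -0.08. The 5 were IGF2BP3 and ATXN2, which bind mRNAs, EIF4B, PAN2, the catalytic deadenylase subunit that PABPC1 recruits, and PAIP2, which displaces PABPC1 from tails. None of the 5, ATXN2 included, kept its call without lacZ replicate 2 or 3, or without PABPC1 hairpin 2 or 3. PAIP2 read 8.68, 8.54 and 8.43, against 9.49 and 9.34 with lacZ (-0.87 ± 0.24, adjusted p = 0.036) and 8.28 to 9.26 in the others. PAN2 read 7.01, 6.63 and 6.93, against 7.63 and 7.74 with lacZ (-0.83 ± 0.21, 0.024) and 6.55 to 7.41 in the others. Against the other knockdowns 18 of 27 partners were above, beside 43.9% of all genes, with a median of 0.12, and limma called 0, with 5 higher and 2 lower at an unadjusted p under 0.05.

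EIF4G1, the scaffold that links PABPC1 to the cap, was the partner with the largest positive difference. It read 8.95, 9.26 and 9.32 with the PABPC1 hairpins, against 8.46 and 8.72 with lacZ and 8.44 to 9.09 in the others, which gave 0.58 ± 0.19 against lacZ (adjusted p = 0.069) and 0.53 ± 0.14 against the others (0.1, and 0.02 without PRKDC hairpin 3, the array at 9.09). PAIP1, the PABPC1-interacting protein that favours translation, differed by 0.03 ± 0.16 from lacZ. PAIP2 and PAN2 lost their calls without lacZ replicate 2 (0.344 and 0.198) or 3 (0.11 and 0.14) and without hairpin 2 (0.0771 and 0.0853) or 3 (0.115 and 0.0554), and PAIP2 without hairpin 1 (0.0604). Quantile normalization also ended the calls of PAIP2 (0.125), PAN2 (0.0781) and IGF2BP3 (0.115), and IGF2BP3 (-0.96, adjusted p = 0.048) lost its call under 9 alternatives in all, among them each lacZ array (0.347 without replicate 2 and 0.156 without 3) and each hairpin left out (0.0781 to 0.123).

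The machinery that shortens and degrades mRNAs showed the same contrast. Its calls against lacZ stand beside 4.02% of all genes called lower. Of 29 deadenylase genes, in which regulators and tail-extending enzymes are counted, 5 fell against lacZ (median -0.30), among them CNOT4 (-0.88 ± 0.24, adjusted p = 0.031), the poly(A) polymerase TENT2 (-0.97 ± 0.26, 0.028) and the uridylyltransferase TUT4 (-0.86 ± 0.22, 0.022). Of 44 decapping and decay genes 4 fell (median -0.24), among them UPF2 of nonsense-mediated decay (-1.20 ± 0.27, 0.011) and EXOSC8 of the exosome (-1.14 ± 0.33, 0.043). None of these 5 differed from the other knockdowns by more than 0.16. Medians against the other knockdowns were 0.12 and 0.07, with 0 calls in limma in either list and, at an unadjusted p under 0.05, 2 higher and 1 lower deadenylase genes and 2 higher and 3 lower decay genes. All 5 were lost without lacZ replicate 2 (0.198 to 0.345) or 3 (0.0566 to 0.153), and all but UPF2 without at least 1 PABPC1 hairpin (0.0583 to 0.132). After quantile normalization 0 deadenylase genes and 1 decay gene were called, CNOT4 (0.103), TENT2 (0.0982), TUT4 (0.101) and EXOSC8 (0.0998) being lost, and the medians were -0.16 and -0.10.

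Of 52 translation factors 3 fell against lacZ and 0 rose (median -0.19), a share near the 4.02% of all genes. They were EIF4B, the start-codon factor EIF1 (-0.74 ± 0.18, adjusted p = 0.017) and EIF3L (-0.69 ± 0.20, 0.041). Against the other knockdowns only EEF1A2 was called. Without PRKDC hairpin 3 the helicase EIF4A2 (-0.58, 0.041), the translation repressor EIF4EBP1 (-0.57, 0.035) and EIF2S3, the γ subunit of eIF2 (-0.51, 0.019), were lower beside EEF1A2, and EIF4G1 was higher. EIF1 and EIF3L kept no call without lacZ replicate 2 (0.179 and 0.301) or 3 (0.112 and 0.154) or PABPC1 hairpin 1 (0.0836 and 0.0782) or 3 (0.0559 and 0.0956), nor EIF3L without hairpin 2 (0.099) or after quantile normalization (0.136), when 1 factor was higher and 2 lower, 26 of 52 were below lacZ and the median was -0.04.

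Genes driven by the stress factor ATF4, whose mRNA is translated when initiation is limited, were among the lower ones. Of 39 measured 10 fell against lacZ and 0 rose, beside 4.02% of all genes lower, with a median of -0.62, and the median member lay -0.56, -0.60 and -0.55 from lacZ with the 3 hairpins. ALDH1L2, a mitochondrial folate enzyme, read 5.78, 5.18 and 5.63, against 7.65 and 7.26 with lacZ and 5.23 to 6.59 in the others. DDIT3, a transcription factor of stress, read 6.06, 6.45 and 6.22, against 7.52 and 7.85 with lacZ and 6.41 to 7.38 in the others. Both overlapped the other knockdowns, from which they differed by -0.52 ± 0.23 and -0.51 ± 0.18 (adjusted p = 0.41 and 0.28). Over the list 32 of 39 were below the other knockdowns with a median of -0.21, and limma called 0, with 12 lower and 0 higher at an unadjusted p under 0.05. The other knockdowns were spread widely here, from -0.56 with PRKDC hairpin 3 to 0.11 with PRKDC hairpin 1 and SUPT16H hairpin 1.

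ALDH1L2 and DDIT3 kept their calls against lacZ under all alternatives, while the amino acid transporter SLC38A2 (-1.39 ± 0.41, adjusted p = 0.046) lost its call without lacZ replicate 2 (0.374) or 3 (0.129) and without any hairpin (0.0888 to 0.105). SLC38A2 was also lost after quantile normalization (0.0741), after median centring (0.0511) and with no intensity trend (0.0538). The list's calls numbered 3 without lacZ replicate 2, 2 without replicate 3 and 5 after quantile normalization. VEGFA, the angiogenic growth factor, read 7.39, 7.19 and 7.22, against 8.33 and 8.44 with lacZ (-1.12 ± 0.23, 0.005, and 0.0747 or 0.0588 without lacZ replicate 2 or 3). Without PRKDC hairpin 3 it was also lower than the other knockdowns (-0.61, 0.014), as were ATF3 (-0.74, 0.015) and the arginine transporter SLC7A3 (-0.91, 0.041).

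Among chaperones, HSPB1 was the heat shock gene called in both comparisons, and differed by -1.20 ± 0.17 from lacZ (adjusted p = 0.00019, up to 0.00864 over the alternatives). DNAJB4 fell against lacZ by 1.45 ± 0.30 (0.0053, and 0.188 without lacZ replicate 2) and differed by -0.06 ± 0.22 from the other knockdowns. Over 22 heat shock genes the median was -0.02 against lacZ and 0.10 against the others. Of 32 endoplasmic reticulum chaperones and XBP1 targets 21 were below lacZ, with a median of -0.21, and 10 were lower and 2 higher at an unadjusted p under 0.05, while their median against the other knockdowns was 0.06. Those called against lacZ were 2, both lower, beside 4.02% of all genes. DNAJB9 was lower by 0.84 ± 0.18 (adjusted p = 0.0056) and HERPUD1 by 1.16 ± 0.27 (0.013). Both were lost without lacZ replicate 2 (0.0502 and 0.161) or 3 (0.0861 and 0.0889), HERPUD1 also without PABPC1 hairpin 1 (0.0567).

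A second set of genes, at or above the lacZ level in PABPC1 knockdown, was called against the other knockdowns only without PRKDC hairpin 3. For UTP20 that array itself read like PABPC1 knockdown, so that leaving it out raises the difference. Calls against lacZ, a contrast that does not use that array, also rose without it, from 1060 to 1324. UTP20, a scaffold of the pre-ribosome, read 7.14, 8.07 and 7.64 with the PABPC1 hairpins, against 7.56 and 7.13 with lacZ. In the other knockdowns it read 5.49 to 6.83, apart from 7.36 with PRKDC hairpin 3, so that the difference from them was 1.32 ± 0.30 with that array (adjusted p = 0.066) and 1.49 without it (0.005). RPP40, of RNases P and MRP, read 6.86, 7.45 and 6.97, against 6.63 and 6.66 with lacZ and 5.19 to 6.70 in the others (1.05 ± 0.24, 0.071, and 1.18, 0.0053, without that array). Both genes were chosen after their values were seen.

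A list of 104 ribosome biogenesis factors was drawn up after these values were seen, so that its counts are no independent support. Without PRKDC hairpin 3, limma called 27 higher and 0 lower than in the other knockdowns, beside 0.798% and 0.88% of all genes. At an unadjusted p under 0.05, 0 were lower. With that array limma called 0. At an unadjusted p under 0.05, 52 were then higher and 0 lower, beside 798 and 1098 of 18417 genes. The list median was 0.35 against the other knockdowns and 0.04 against lacZ, beside -0.02 and 0.04 for all genes. By array the median member lay -0.18, 0.15 and 0.08 from lacZ with the PABPC1 hairpins, 0.09 with PRKDC hairpin 3 and -0.56 to -0.19 in the 8 remaining arrays. PABPC1 hairpin 1 thus came close to the highest of those 8, and the lists of ribosomal proteins and of the factors that build ribosomes lay on opposite sides of the other knockdowns.

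Some immediate early genes, chosen after their values were seen, were higher than in the other knockdowns without PRKDC hairpin 3. SNAI1, a repressor of epithelial genes, read 7.14, 7.67 and 7.88, against 7.33 and 7.44 with lacZ, 8.07 with PRKDC hairpin 3 and 5.27 to 6.29 in the 8 other arrays (1.52 ± 0.33 above the other knockdowns, adjusted p = 0.064, and 1.81 without that array, 7.2e-06). FOS read 6.56, 7.00 and 6.79, against 6.54 and 6.80 with lacZ, and FOSB 6.61, 7.20 and 7.18, against 6.98 and 7.14 with lacZ. Both were called only without PRKDC hairpin 3 (0.87, 0.0039, and 0.95, 0.0034). GADD45G, a stress-induced growth inhibitor, followed (1.05, 0.0035). The list of 38 short-lived and immediate early mRNAs did not share this. Without that array 3 were higher and 2 lower, with a median of 0.01, and with it limma called 0, 5 were higher and 2 lower at an unadjusted p under 0.05, and 18 lay above and 20 below the other knockdowns.

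Some of the 162 genes lower without PRKDC hairpin 3 are given here as examples, with no list or test behind the choice. GPC3, a glypican, read 6.66, 5.95 and 6.42, against 7.91 and 7.66 with lacZ, 5.97 with PRKDC hairpin 3 and 6.90 to 8.16 in the 8 other arrays (-1.29, adjusted p = 0.0053). NRN1, a neuritin, read 8.89, 7.27 and 7.90, against 8.19 and 8.28 with lacZ (-1.24 from the others, 0.0043). IFITM1, an interferon-induced membrane protein, read 6.45, 5.24 and 6.27, against 7.58 and 7.70 with lacZ (-1.65 ± 0.37, 0.0094, and -1.10 from the others, 0.0074). Its fall against lacZ was lost without lacZ replicate 2 (0.121) or 3 (0.08) or PABPC1 hairpin 2 (0.0561). Further examples were the protease CTSB (-0.65, 0.021), the sphingolipid activator PSAP (-0.64, 0.025), the sulfatase IDS (-0.67, 0.0084) and the nuclease DNASE2 (-0.57, 0.019). All of these were named after their values were seen, IFITM1 excepted.

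The 3 hairpins did not rank all of these genes by how far PABPC1 fell. Hairpin 1 left the least PABPC1 (8.59) and hairpin 3 the most (9.19), yet hairpin 2 gave the lowest level of NDRG1 (6.93), ENO2 (6.54), NRN1 (7.27), GPC3 (5.95), IFITM1 (5.24) and HSPB1 (6.95) and the highest of UTP20 (8.07). Hairpin 1 was the highest of the 3 for NDRG1, ENO2, PGK1 and NRN1. Medians of small RNA classes did run in the order of PABPC1 loss. With hairpins 1, 2 and 3 the H/ACA box median lay 0.84, 0.41 and 0.34 above lacZ. The spliceosomal median lay 0.89, 0.62 and 0.56 above it, and the C/D box median 0.29, 0.20 and 0.12. The H/ACA box median was also lowest with hairpin 3 of each other knocked-down gene. Whether these orders follow PABPC1 was not tested. Genes over 1 log2 unit above the mean of the lacZ arrays numbered 104, 70 and 78 with hairpins 1, 2 and 3, and those over 1 unit below numbered 360, 307 and 349. Each hairpin is present on 1 array, so that a difference between hairpins and one between cultures or hybridisations cannot be told apart.

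Other lists fixed with the lists above gave few calls against the other knockdowns. Mitochondrial ribosomal proteins (73 genes, median 0.06), the respiratory chain (69, -0.07), aminoacyl-tRNA synthetases (20, 0.06), sterol synthesis (19, 0.17), proteasome subunits (28, 0.18), cleavage and polyadenylation factors (23, 0.14), p53 targets (25, -0.13), mitosis genes (29, -0.06) and interferon-stimulated genes (32, -0.06) had 0 calls in limma. The counts at an unadjusted p under 0.05 in these lists, higher and lower, were 6 and 1, 1 and 6, 3 and 1, 5 and 0, 5 and 0, 2 and 0, 2 and 6, 0 and 4 and 1 and 3. Against lacZ they had at most 4 calls in a direction, beside 1.73% higher and 4.02% lower of all genes. The p53 targets CCNG1, GADD45A, POLH and TP53INP1 were lower by 0.70 to 0.93 (adjusted p = 0.011 to 0.046). Each of them lost its call without either lacZ array and, POLH excepted, without at least 1 PABPC1 hairpin (0.0604 to 0.159).

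Zinc finger genes, 494 in all, had 23 calls higher and 39 lower against lacZ, beside 1.73% and 4.02% of all genes, with a median of -0.20. Against the other knockdowns limma called 0, with 12 higher and 12 lower at an unadjusted p under 0.05. Neurofilament NEFL, a gene that marks this line, read 9.56, 8.99 and 9.58 with the PABPC1 hairpins, against 11.47 and 11.36 with lacZ, a difference of -2.04 ± 0.27 (adjusted p = 5.4e-05) that the other knockdowns shared (-1.55). The summed linear intensity of the 9 HEK293 markers was 2846 to 3302 with the PABPC1 hairpins, 2931 to 4449 in the other knockdowns and 5668 to 5898 with lacZ. NEFL was the marker called, 6 of the 9 were below lacZ, and their median difference was -0.15. Summed markers of blood cells were 174 to 197 with the PABPC1 hairpins and 198 to 207 with lacZ, those of neurons 216 to 240 with the PABPC1 hairpins and 260 to 285 with lacZ, those of keratinocytes 192 to 207 with the PABPC1 hairpins and 178 to 183 with lacZ, and those of fibroblasts 249 to 259 with the PABPC1 hairpins and 238 to 239 with lacZ. The part of these markers in the results was not tested.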

How the data were processed

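RNA of HEK293 cells, selected for 6 days in puromycin after infection with hairpin viruses, was measured on 28 arrays, and the deposited table holds intensities, computed by the authors with RMA (background correction, quantile normalization and summary by probeset), on the linear scale (its version is not given in the sources used here). Intensities were taken as log2. Of 33252 probesets 19460 carried 1 gene symbol, 1754 several and 12038 none, and for each symbol the probeset of highest mean was kept, which gave 18417 genes. Groups came from the labels, while the division into series is not named in the array titles. A cell-means model of group and series over all 28 arrays was fitted with limma 3.58.1 in R 4.3.3 (17 residual and 8 prior degrees of freedom, intensity trend), with Benjamini-Hochberg adjustment over all genes and calls under 0.05. PABPC1 was set against lacZ of the second series and against the mean of the PARP1, PRKDC and SUPT16H groups, both contrasts using the same PABPC1 arrays. LacZ replicate 1, the near-copy of replicate 2 in the first series, entered neither contrast and, as the 1 lacZ array of that series, adds nothing to the estimate of the spread. The fit was also tested on simulated data, with independent noise around 1 mean per gene and shifts in the PABPC1 arrays only. Against lacZ it recovered 78% of genes shifted by 1 and 100% of those shifted by 2 log2 units. Against the other knockdowns it recovered 96% and 100%, with 6 and 2 false calls in the 2 comparisons. The simulation held no outlying array, no near-copy of an array and no differences among the other knockdowns. These shares therefore need not hold for the real arrays.

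The genes compared and all lists were chosen with earlier results of these data known, and the lists of glycolysis and hypoxia and of ribosome biogenesis were added after values had been seen. Named genes were PABPC1, the other measured poly(A)-binding proteins, the 10 largest rises and falls among calls against lacZ with every hairpin beyond both lacZ arrays, calls against the other knockdowns with every hairpin beyond all 9 arrays, and up to 4 called members of each list. Other named genes, among them the remaining calls against the other knockdowns, were chosen after their values were seen. Transcript starts came from RefSeq (GRCh38.p14), in which 14237 genes were matched. Alternatives were the second series alone, quantile normalization, median centring, a pseudocount of 16, a minimum mean log2 intensity of 5, no intensity trend, the mean of probesets, a replicate block, and each array or knockdown left out in turn. Python 3.11.15, numpy 2.4.6, pandas 2.3.3 and matplotlib 3.10.9 were used. Hairpin sequences were not used here.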

Additional observations from a re-analysis of the deposited data

Results flagged for a closer look

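For 16 genes the difference from lacZ in PABPC1 knockdown differed from that in the other knockdowns by a test of the difference itself (limma, adjusted p under 0.05). The lacZ arrays cancel in this test. The value was -1.97 for PABPC1, -1.52 for NDRG1, -1.10 for ENO2, -0.93 for PABPC3, -0.89 for PGK1, -0.86 for RASSF2, -0.81 for CKS1B and -0.79 for EEF1A2. It was -0.73 for EPB41L4A-AS1, -0.69 for HSPB1, -0.61 for MAD2L2 and -0.46 for NGEF, and it was positive for STEAP1 (0.65), H2BC7 (0.90), H2AC15 (0.95) and H2AC12 (1.04).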

How the results depend on the processing

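Against lacZ the 1060 calls became 3364 with the second series alone and lay between 111 (without lacZ replicate 2) and 1324 (without PRKDC hairpin 3) when single arrays were left out. Against the other knockdowns the 16 calls became 75 with the second series alone, 38 with low values left out, 28 with no intensity trend, 78 without the PARP1 arrays, 85 without the PRKDC arrays and 2 without the SUPT16H arrays, and lay between 3 (without PABPC1 hairpin 2 or 3) and 309 (without PRKDC hairpin 3) when single arrays were left out. The share of higher calls there, 4 of 16, was 42.1% after median centring, 38.7% with the second series alone and 47.6% without PRKDC hairpin 3. The 3541 calls of the other knockdowns against lacZ became 6538 with the second series alone, 5480 without the PARP1 arrays and 1746 without the PRKDC arrays, and lay between 238 and 3743 with single arrays left out. The causes were not tested.

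Hairpin numbers were not used to pair the arrays in the main fit, since each hairpin is a different sequence. Deviations of the PABPC1 arrays from their group mean correlated at -0.24 to 0.24 with those of same-numbered arrays. The median H/ACA box RNA, however, was lowest with number 3 in each knockdown group. It lay 0.34, -0.09, 0.69 and 0.41 from lacZ with PABPC1, PARP1, PRKDC and SUPT16H. Whether same-numbered arrays were processed together was not tested. With the number as a replicate block 103 genes were called against the other knockdowns, 54.4% of them higher, and the 16 genes were all among them. Over 128 calls of named genes and their alternatives, 1290 of 1684 values kept direction and call, 393 kept the direction and lost the call, and 1 turned, EIF4B against lacZ with the mean of its probesets (0.12). With 3 arrays against 2, and 1 array for each hairpin, the data cannot separate an effect of PABPC1 from one of a hairpin.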
